A study of Rattus norvegicus with 24 samples.

Results

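The splicing factors and hnRNP genes are the symbols of the Srsf, Hnrnp, Rbm, Celf, Mbnl and Rbfox families in a table of gene expression from rat tibialis anterior (TA) muscle. They were chosen by name alone, as every symbol that begins with 1 of these family names (followed by a digit, except for Hnrnp), with the row of highest mean kept where a symbol had several rows. The rule gave 71 genes of 13458 symbols. Of these, 13 were classed as muscle-type regulators (Mbnl1 to Mbnl3, Celf1 to Celf5, Rbfox1, Rbfox2, Rbm20, Rbm24 and Rbm38) and 58 as general factors (11 Srsf, 18 Hnrnp and 29 other Rbm genes). The muscle-type list held 15 symbols, and Celf6 and Rbfox3 had no row among those used here.

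The muscles came from 12 aged male Fischer 344 rats (23 ± 1 months). In 9 of them the left common peroneal nerve was silenced with tetrodotoxin (TTX), a sodium channel blocker, delivered by an osmotic pump through a cuff on the nerve, so that the TA of that limb was disused. The left limbs were taken after 6 to 7 days of TTX (atrophy, n = 3), after a further 9 days without it (recovery, n = 3), or after a later second period of 5 to 6 days (repeated atrophy, n = 3), and the untreated right limbs of these animals were the controls (n = 9). A further 3 animals, 1 at each time, had the same surgery without TTX and gave 3 left and 3 right sham limbs. Each animal gave both limbs, so a control limb had been in an animal that was also treated, and each left group was a different set of 3 animals.

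Splicing removes introns from a pre-mRNA, and alternative splicing chooses which exons are kept. SR proteins (the Srsf genes) bind exons through RNA recognition motifs and, as a rule, promote their inclusion, while many hnRNP proteins bind introns or exons and repress it. MBNL, CELF and RBFOX proteins, with RBM20 and RBM24, direct the switch from fetal to adult exon use in striated muscle, and loss of MBNL1 onto expanded repeat RNA underlies the splicing defects of myotonic dystrophy. The values here are levels of the regulators' own mRNA. They do not measure exon use, protein or phosphorylation, and in a bulk sample fewer cells of a type and less RNA per cell cannot be told apart.

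Levels are given as rescaled CPM, which are the deposited CPM (read counts scaled to a total of 1000000 a limb) divided by a median of ratios factor for each limb (0.781 to 1.28). This choice matters. Inferred depth was 18.9 to 30.9 M reads, and the 10 most abundant rows held 24.3% to 32.8% of all CPM in control limbs, 13.0% to 25.6% in atrophy limbs, 25.8% to 27.7% in recovery limbs and 15.6% to 19.2% in repeated atrophy limbs. In the CPM as deposited the median of all 14031 rows tested was therefore 0.22 higher (log2) in atrophy limbs and 0.20 higher in repeated atrophy limbs than in control limbs, against 0.02 in recovery limbs, and results are given on both scales where they differ. The markers of muscle fibres (9 of 9 in the table) summed to 173098 to 308205 rescaled CPM in control limbs, as a skeletal muscle should, and to 67029 to 185641 in atrophy limbs. All fold changes are log2 values on the scale of level + 1. A gene was called when its fold change was at least 1.2 and its adjusted p at most 0.05 in limma across all rows, with Benjamini-Hochberg adjustment.

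Per kilobase of transcript model, the highest mean level in control limbs belonged to Hnrnpa2b1, which encodes one of the core hnRNP proteins, at 222 rescaled CPM per kb. Rbfox1, a muscle-type gene, was the next at 161, ahead of Hnrnpab (107), Hnrnpdl (89.1) and Hnrnpu (88.4). Rbm38 and Rbm24 followed at 66.2 and 64.6 per kb and Mbnl2 stood at 49.7, so 4 of the 13 muscle-type genes were among the 13 highest of all members. At the other end, 7 members had a mean under 1 CPM over the 24 limbs (Mbnl3, Celf3, Celf4, Celf5, Rbm11, Rbm46 and Srsf12). The muscle-type class spanned nearly the whole range, with Mbnl1 at 12.5, Rbm20 at 11.9, Celf1 at 8.89, Rbfox2 at 3.31 and Celf2 at 1.91 per kb in between, and 7 of its 13 members reached 10 CPM, against 52 of 71 members in all.

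The mean scores of general factors and muscle-type regulators sat on different sides of the control mean in the disused limbs on rescaled CPM. On the CPM as deposited both sat above it. As a class score, the mean log2 level of all members of a class was taken in each limb and set against its mean in the control limbs. The general score was 0.23 ± 0.07 (SD, n = 3) in atrophy, -0.03 ± 0.01 in recovery and 0.26 ± 0.16 in repeated atrophy, with control limbs at 0 ± 0.13 (n = 9). The muscle-type score was -0.14 ± 0.03, -0.21 ± 0.13 and -0.09 ± 0.05 in the same order, with a control SD of 0.12. Every member counts equally in this mean, and the fall of Mbnl1 (below) made up most of it in atrophy. In repeated atrophy the muscle-type mean would lie above 0 without Mbnl1. From the CPM as deposited the general score was 0.57 ± 0.22 in atrophy and 0.61 ± 0.08 in repeated atrophy, and the muscle-type score 0.11 ± 0.12 and 0.17 ± 0.14. The limbs of the groups were not cleanly apart. The 3 atrophy limbs scored 0.31, 0.19 and 0.19 for the general class, the 3 repeated atrophy limbs 0.42, 0.26 and 0.10, and the control limbs -0.17 to 0.19, so 1 repeated atrophy limb and 2 atrophy limbs lay within the control range. For the muscle-type class, all 3 repeated atrophy limbs, 2 of the 3 atrophy limbs and 1 of the 3 recovery limbs lay within the control range of -0.14 to 0.22.

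**Figure D1:**
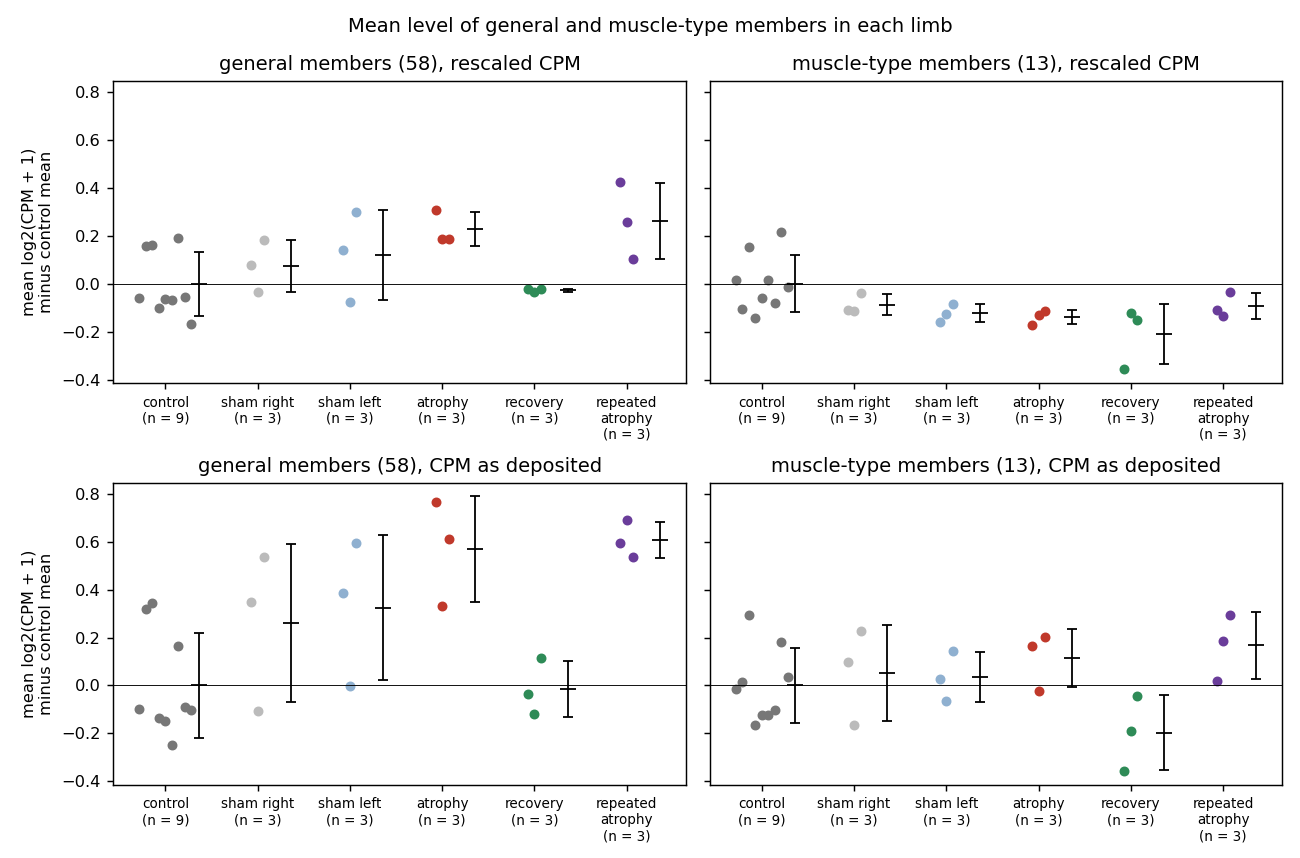
Mean log2(CPM + 1) of the 58 general and 13 muscle-type members in each limb, minus the mean over the control limbs, on rescaled CPM (top) and CPM as deposited (bottom). Points are limbs, and bars are the mean and SD of each group. The group mean of the general score is highest in atrophy and repeated atrophy on both scales, though single sham limbs reach as high. The muscle-type score is below 0 in all left limbs on rescaled CPM only, and the sham limbs overlap with the disused limbs in both classes.

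The sham group means lay on the same side of the controls as those of the disused limbs. The general score was 0.12 ± 0.19 in sham left limbs (0.14, -0.08 and 0.30) and 0.08 ± 0.11 in sham right limbs (0.08, -0.03 and 0.18), so both limbs of sham animal 2 were below 0, and the muscle-type score was -0.12 ± 0.04 and -0.09 ± 0.04, as far from the controls as the -0.09 ± 0.05 of repeated atrophy. In sham left against control limbs 47 of 58 general members had a log2 fold change above 0, close to the 49 of 58 in atrophy and 48 of 58 in repeated atrophy. No member was called in sham left against control limbs, where 0.0% of all rows were, or in sham left against sham right limbs (0.0% of rows, with 69 members tested). At an unadjusted p under 0.05 there were 3 and 2 members, for which the share of all rows is not given here. Whether the TTX limbs differed from the sham limbs was not tested.

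Within animals the general score was higher in the left limb of all 9 TTX animals, and exceeded every recovery and sham animal in the 3 repeated atrophy animals. It was 0.23, 0.31 and 0.27 in the 3 repeated atrophy animals, and 0.08, 0.03 and 0.05 in the 3 recovery animals. In the atrophy animals it was 0.37 in animal 1 and 0.03 in both animals 2 and 3, so that after the first TTX period 1 animal held most of the difference between the limbs. In the sham animals it was 0.07, -0.04 and 0.12. The muscle-type score was lower in the left limb of all 9 TTX animals, by 0.02 to 0.35 on the log2 scale, and also lower in the left limb of the 3 sham animals (-0.05, -0.01 and -0.05). In repeated atrophy animals 1 and 3 this sign came from Mbnl1, at 1.91 against 6.21 and 4.37 against 10.6 rescaled CPM. Without Mbnl1 the left limb would be the higher there, and likewise in sham animals 1 and 2. On the CPM as deposited, the muscle-type score was higher in the left limb of 4 of the 6 atrophy and repeated atrophy animals, and the general score was again higher in the left limb of all 9.

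The medians of the fitted fold changes also differed between the classes in the disuse groups. In atrophy against control limbs the median was 0.20 over the general members, -0.06 over the muscle-type members and 0.00 over all rows tested. In repeated atrophy it was 0.25, -0.09 and -0.01, with 48 of 58 general members and 5 of 13 muscle-type members above 0. In recovery both medians were -0.03 beside 0.01 over all rows, whereas the mean scores of the recovery limbs were -0.03 and -0.21. The muscle-type median was lower than the general median by -0.25 in atrophy and -0.34 in repeated atrophy, and with CPM as deposited by -0.30 and -0.36, where the medians themselves were 0.54 and 0.24 in atrophy and 0.62 and 0.25 in repeated atrophy. With members of at least 10 CPM alone, the difference was -0.12 in atrophy, -0.17 in recovery and -0.36 in repeated atrophy. These medians are descriptions, as the members are not replicates.

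After the first TTX period few members passed the test. Srsf7, Hnrnpa1, Rbm4 and Rbm47 rose and Mbnl1 fell. These were 4 of 71 members higher (5.63%) where 4.57% of all rows were, and 1 lower (1.41%) where 5.17% were, so the share of members called was near or under that of all rows. As deposited, the CPM gave 32 members higher, beside 20.3% of all rows, and 0 lower, beside 2.33%. The 32 held all 4 of the members called on rescaled CPM. With the animal as a block, so that each left limb was compared with its own animal's right limb, 0 members were higher or lower (0.0% and 0.0% of rows), and 12 had an unadjusted p under 0.05. The share of all rows at that p is not given here, so the 12 are not read as a result. The count moved with individual animals, as did the share of all rows called. Higher members numbered 0 without atrophy animal 1 or 3 or without any of the 3 recovery animals, where 0.0%, 0.637% and 1.65% to 2.73% of all rows were higher. They numbered 1 without repeated atrophy animal 2 (2.45% of rows), 7 without repeated atrophy animal 1 (5.21%) and 6 without atrophy animal 2 (8.86%). Members that fell numbered 3 without atrophy animal 2 (8.99% of rows), 2 without repeated atrophy animal 1 (5.73%) and 0 without atrophy animal 1 or 3, any recovery animal or repeated atrophy animal 2.

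After recovery the called members were all lower. Mbnl1, Rbm38, Hnrnpul2, Hnrnpm and Hnrnpul1 fell, 5 of 71 members (7.04%) beside 5.87% of all rows, and 0 rose beside 6.24% of all rows (1 without atrophy animal 1 or recovery animal 2). The CPM as deposited gave 1 member, Rbm38, as lower (3.33% of rows) and 0 as higher (4.4% of rows). With the block 0 members were higher or lower, beside 0.314% and 0.135% of rows, and 14 had an unadjusted p under 0.05. The share of all rows at that p is not given here, so the 14 are not read as a result. Without recovery animals 1, 2 or 3 the lower members numbered 0, 1 and 0 beside 1.22%, 2.24% and 2.82% of all rows, and without repeated atrophy animal 1, 2 or 3 they numbered 4, 2 and 3 beside 6.79%, 3.92% and 4.54%. The recovery limbs also held more connective tissue and macrophage RNA. All 5 fibroblast markers and 4 of 5 macrophage markers were called higher, and their summed levels were 1212 to 1915 rescaled CPM against 189 to 603 in control limbs, and 85.6 to 152 against 31.3 to 97.8. Their part in the levels of the members was not tested.

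With all animals in the fit, repeated atrophy gave the most calls. Of the 71 members, 14 rose (19.7%, beside 13.2% of all rows) and 3 fell (4.23%, beside 12.0%). The general factors gave 13 of the rises and the muscle-type class 1, which was Rbm24. Rises comprised 2 of 11 Srsf genes (Srsf7, Srsf10), 6 of 18 Hnrnp genes (Hnrnpa1, Hnrnpa3, Hnrnpk, Hnrnpl, Hnrnpr, Hnrnpu) and 6 of 32 Rbm genes (Rbm4, Rbm24, Rbm25, Rbm28, Rbm45, Rbm47). The falls were Mbnl1, Rbm33 and Hnrnpm. All 4 members higher and the 1 lower in atrophy were among them, although both comparisons share the control limbs. With the block 13 members were higher (10.8% of rows) and 3 lower (10.2%), of which 11 and 3 were called without it. From the CPM as deposited 41 members were higher beside 28.1% of all rows and 1, Mbnl1, was lower beside 6.24%. Leaving out 1 repeated atrophy animal, 3 members were higher without animal 1 (9.28% of all rows) and 3 without animal 2 (7.63%), of which 2 and 3 were called with all animals. Without animal 3 there were 13 (10.5% of rows), of which 12 were called with all animals. Lower members numbered 1 without repeated atrophy animal 2, beside 6.71% of rows, and 2 without animal 1, beside 8.94%. In that fit without repeated atrophy animal 1, atrophy gave more calls, with 7 higher and 2 lower (5.21% and 5.73% of rows).

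**Figure D2:**
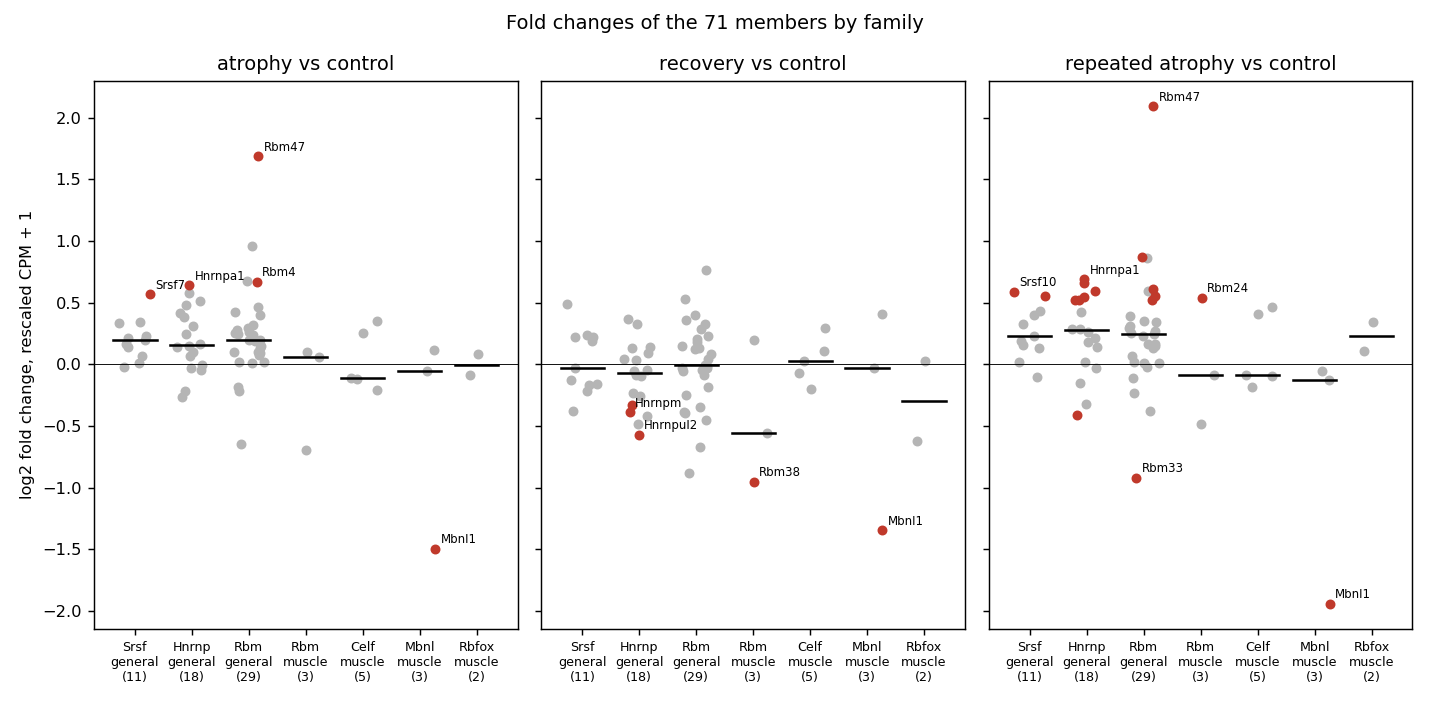
Log2 fold change (rescaled CPM + 1) of each of the 71 members against the 9 control limbs, by family and class, with the number of genes in brackets. Red points are called and grey points are not, black lines are medians, and the furthest called members are named. The general families lie mostly above 0 in atrophy and repeated atrophy and around 0 in recovery, and Mbnl1 is lowest in each comparison.

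Among the left groups, members were called between disuse and recovery and not between the disuse groups. In recovery against atrophy 5 members were lower (Hnrnpd, Hnrnph2, Rbm4, Rbm17 and Srsf7), 7.04% beside 4.85% of all rows, and 0 were higher beside 5.77%. In repeated atrophy against recovery 7 were higher (Hnrnpd, Hnrnph2, Hnrnpl, Rbm28, Rbm42, Srsf4 and Srsf7), 9.86% beside 10.3% of all rows, and 0 were lower beside 11.3%. All were general factors. On the CPM as deposited 20 members were lower in the first comparison beside 14.5% of all rows and 0 higher beside 3.34%, and 29 were higher in the second beside 21% and 0 lower beside 6.29%. With the animal as a block 0 members were called in either, beside 0.0% and 0.0143% of rows higher and lower in the first and 0.0143% and 0.0356% in the second. At an unadjusted p under 0.05 stood 3 and 7 members, for which the share of all rows is not given here. These comparisons are between different animals, and both use the recovery limbs. Without 1 animal the first count ran from 0 (without atrophy animal 1 or 3 or recovery animal 1 or 2) through 1 (recovery animal 3) and 2 (repeated atrophy animal 2) to 5, and the second was 1 without recovery animal 2, 3 without recovery animal 1 or 3 or repeated atrophy animal 1 or 2, and 13 without atrophy animal 3. The share of all rows called in the same direction ran from 0.629% to 5.83% in the first and from 4.3% to 11.5% in the second. Between repeated atrophy and atrophy no member and 0.0% of all rows were called. There 3 members had an unadjusted p under 0.05 beside 907 rows, and 0 members were called on the CPM as deposited, so a difference between the first and second TTX period was not detectable in these genes with 3 limbs a group.

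Mbnl1, the muscle-type splicing regulator lost onto repeat RNA in myotonic dystrophy, was the member that fell most. Its levels were 6.21 to 24.8 rescaled CPM in the 9 control limbs (median 11.6), 1.15, 7.83 and 6.08 in atrophy, 2.32, 6.12 and 6.75 in recovery, and 1.91, 2.37 and 4.37 in repeated atrophy. The repeated atrophy limbs were all below the lowest control limb, the atrophy and recovery limbs overlapped with it, and the left limb was the lower in all 9 TTX animals. The log2 fold change was -1.49 ± 0.42 (SE) in atrophy (limma adjusted p = 0.0337), -1.34 ± 0.42 in recovery (adjusted p = 0.0456) and -1.94 ± 0.42 in repeated atrophy (adjusted p = 0.00262). With the block the adjusted p was 0.18, 0.16 and 0.026, and on the CPM as deposited 0.051, 0.064 and 0.0068. Only the fall in repeated atrophy therefore passed in all 3 fits. Sham left limbs were at 9.14, 9.01 and 14.99 beside 16.7, 12.0 and 18.1 in the right limbs of the same animals, so the left limb was the lower in all 3 sham animals too. The row lies at chr2:144697833-144809368 on the plus strand (rn7), and its model is 1164 bases long beside the 4578 of Mbnl2.

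Its relatives and the CELF genes, which oppose MBNL proteins at many exons, did not pass. Mbnl2 was at 228 ± 71.7 rescaled CPM in control limbs and 239.6 ± 52.3, 290.4 ± 39.3 and 205 ± 59.3 in atrophy, recovery and repeated atrophy (log2 fold change -0.13 ± 0.25 in repeated atrophy, adjusted p = 0.756). Mbnl3 was at 0 in 7 of 9 control limbs and in all atrophy and repeated atrophy limbs. Celf1, a ubiquitous CELF gene, was 12.2 to 22.6 in control limbs, 21.1, 19.1 and 23.1 in atrophy, 12.2, 16.4 and 17.3 in recovery, and 17.99, 25.4 and 28.4 in repeated atrophy (0.41 ± 0.18, adjusted p = 0.0989). It reached adjusted p = 0.011 in repeated atrophy on the CPM as deposited. Celf2 ran from 1.65 to 5.97 in control limbs and 2.79 to 7.33 in the 9 left limbs of TTX animals, and Celf3, Celf4 and Celf5, which are known mainly from the nervous system, stayed at or under 1.04 in every control limb. Their levels were too low for a difference to be read.

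Rbfox1 and Rbfox2 bind the same short intron element and are known to set exon use in muscle. Rbfox1 was the most abundant muscle-type gene, at 464 to 958 rescaled CPM in control limbs (median 619.9), 871, 802 and 465 in atrophy, 644 to 700.0 in recovery, and 907, 939 and 654 in repeated atrophy. The groups overlapped and its log2 fold change of 0.34 ± 0.22 in repeated atrophy did not pass (adjusted p = 0.294), while on the CPM as deposited it was 0.72 (adjusted p = 0.024). Rbfox2 was far lower, at 4.42 to 10.6 in control limbs and 2.55, 4.13 and 4.66 in recovery (-0.62 ± 0.24, adjusted p = 0.0935).

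The RBM genes of the muscle-type class took separate courses. Rbm24, which promotes inclusion of muscle exons during development, was 149 to 200.04 rescaled CPM in control limbs (median 164), 214, 170.3 and 159 in atrophy, 191, 203 and 184 in recovery, and 319.9, 209.7 and 218 in repeated atrophy. All 3 repeated atrophy limbs exceeded every control limb, and the log2 fold change was 0.54 ± 0.14 (adjusted p = 0.00698, with the block 0.028). Without repeated atrophy animal 1, whose limb was the highest, it was no longer called. Sham limbs were at 116 to 193. Rbm38, known for binding the mRNA of cell cycle genes such as p21, ran the other way, with 99.6 to 252 in control limbs (median 139), 75.7, 117 and 81.9 in atrophy, 80.1, 75.9 and 69.0 in recovery, and 123, 76.9 and 119 in repeated atrophy. The 3 recovery limbs were below every control limb, with a log2 fold change of -0.95 ± 0.23 (adjusted p = 0.0149) that also passed on the CPM as deposited (adjusted p = 0.021) but not with the block (adjusted p = 0.17). It was called without any 1 of the atrophy or repeated atrophy animals and not without any 1 of the recovery animals. Rbm20, the regulator of titin splicing, was 63.7 to 125 in control limbs and 42.3, 65.8 and 51.7 in recovery, and did not pass (-0.56 ± 0.20, adjusted p = 0.0735). The highest control value of 125 came from atrophy animal 3.

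**Figure D3:**
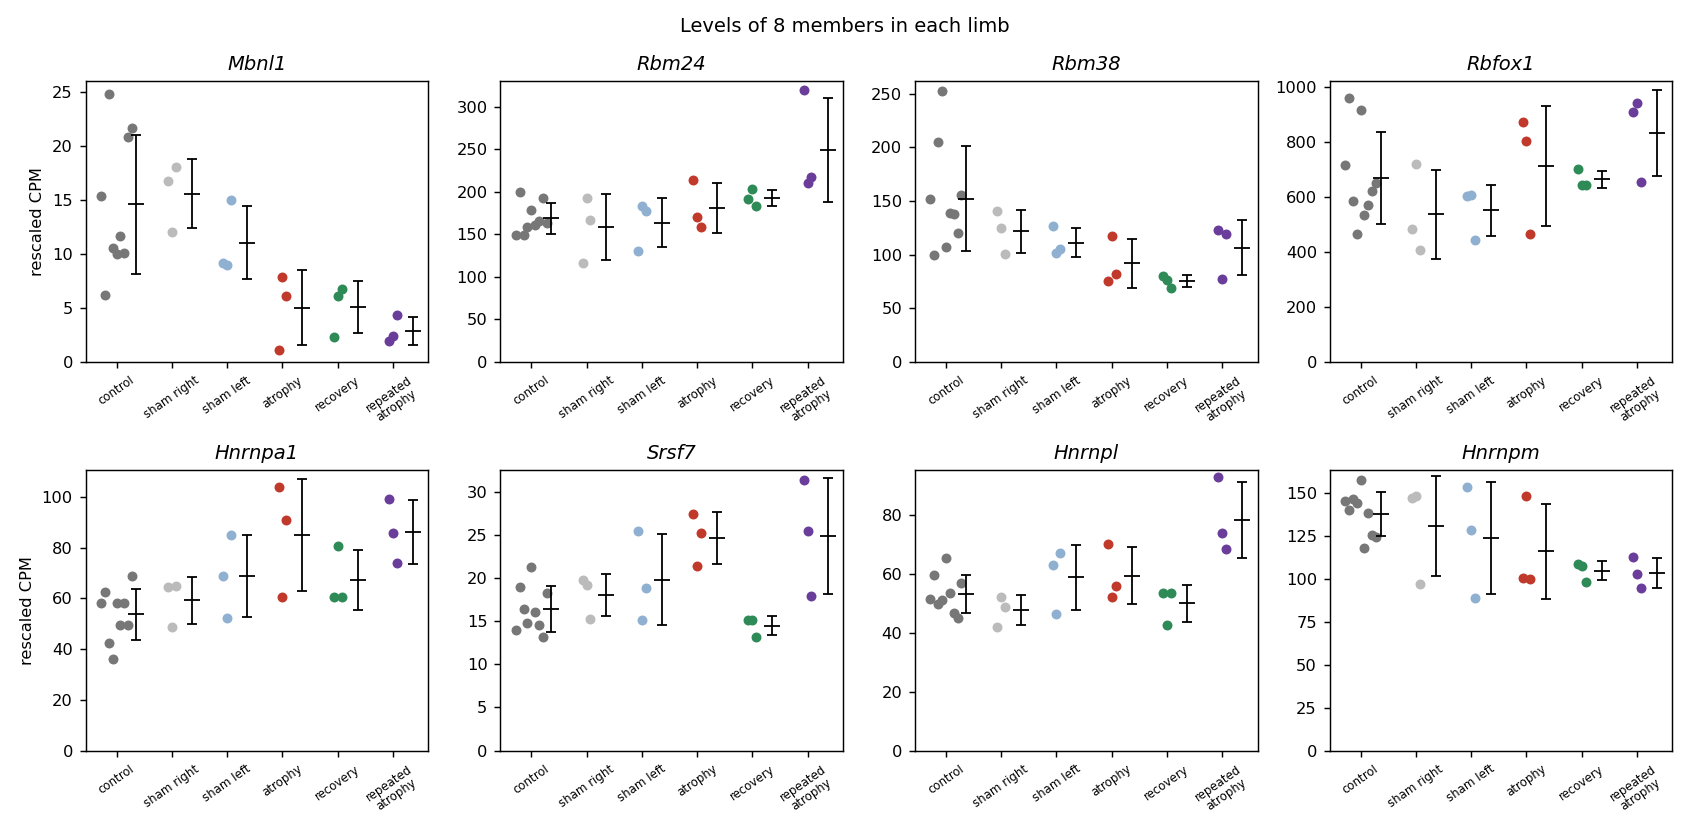
Rescaled CPM of 8 members in each limb, with the muscle-type genes Mbnl1, Rbm24, Rbm38 and Rbfox1 above and the general genes Hnrnpa1, Srsf7, Hnrnpl and Hnrnpm below. Points are limbs and bars are the mean and SD. Mbnl1 in repeated atrophy lies below all 9 control limbs, Rbm24 and Hnrnpl lie above them, and Rbm38 lies below them in recovery.

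Among the SR genes, Srsf7, an SR protein with a zinc knuckle, rose in both disuse groups. It was 13.2 to 21.3 rescaled CPM in control limbs (median 16.1), 27.4, 21.3 and 25.2 in atrophy, 15.2, 15.1 and 13.2 in recovery, and 31.3, 25.5 and 17.9 in repeated atrophy. Atrophy limbs were at or above the highest control limb, 2 recovery limbs were within the control range and the other was just below the lowest control limb, and 1 repeated atrophy limb was within it. The log2 fold change was 0.57 ± 0.16 in atrophy (adjusted p = 0.0359) and 0.55 ± 0.16 in repeated atrophy (adjusted p = 0.0183), and neither passed with the block (adjusted p = 0.29 and 0.073). The repeated atrophy call was lost without animal 1 or 2 of that group, and the atrophy call without atrophy animal 1 or 3, any recovery animal or repeated atrophy animal 2. Srsf7 was also the gene called in both comparisons between disuse and recovery, at -0.72 ± 0.20 for recovery against atrophy (adjusted p = 0.0298) and 0.71 ± 0.20 for repeated atrophy against recovery (adjusted p = 0.0183), together with Hnrnpd and Hnrnph2. A sham left limb at 25.5 was as high as the disused limbs. Srsf10, an SR-like protein that represses splicing when dephosphorylated, was 6.25 to 7.79 in control limbs and 9.77, 12.4 and 11.4 in repeated atrophy, with no overlap (0.59 ± 0.16, adjusted p = 0.0117), a call lost without repeated atrophy animal 2 or 3. Sham limbs were at 6.57 to 9.09. It was also at 12.4, 7.48 and 11.8 in recovery (0.49 ± 0.16, adjusted p = 0.0529). The other 9 Srsf genes passed in no comparison with control limbs on rescaled CPM, with log2 fold changes of -0.11 to 0.43 in repeated atrophy.

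Hnrnpa1, a repressor of exon inclusion that also shuttles mRNA to the cytoplasm, rose in both disuse groups. It was 36.2 to 68.7 rescaled CPM in control limbs (median 58.04), 104, 60.6 and 90.8 in atrophy, 60.4, 80.8 and 60.5 in recovery, and 99.2, 85.6 and 73.9 in repeated atrophy. The repeated atrophy limbs exceeded every control limb, the atrophy limbs did so except in animal 2, and the left limb was the higher in all 9 TTX animals. The log2 fold change was 0.64 ± 0.18 in atrophy (adjusted p = 0.0356, with the block 0.24) and 0.69 ± 0.18 in repeated atrophy (adjusted p = 0.0107, with the block 0.0048). Sham left limbs were at 68.9, 52.5 and 85.0 and sham right limbs at 64.4, 48.6 and 64.7, so the left limb was the higher in these 3 animals as well. The left limbs of sham animals 1 and 3 exceeded every control limb. The atrophy call of Hnrnpa1 was lost without the same animals as that of Srsf7, and the repeated atrophy call without repeated atrophy animal 1 or 2. Hnrnpl, which binds CA-rich RNA, was 45.2 to 65.5 in control limbs and 93.0, 74.1 and 68.5 in repeated atrophy (0.54 ± 0.13, adjusted p = 0.00569), with the 3 limbs above every control limb, and did not pass without repeated atrophy animal 1. A sham left limb (67.4) was also above every control limb for Hnrnpl. Hnrnpa3 was 116 to 217 in control limbs and 325, 268 and 168 in repeated atrophy, so that it passed (0.66 ± 0.19, adjusted p = 0.0145) with 1 limb inside the control range, and a sham left limb reached 284. Reads of Hnrnpa1 can also come from its many processed copies in the genome, and how the counting treated them is not given in the sources used here.

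Hnrnpm, Hnrnpul1 and Hnrnpul2 were the hnRNP genes that fell. Hnrnpm, known for promoting exon skipping through GU-rich sites, was 118 to 157 rescaled CPM in control limbs (median 139.8), 109, 107 and 98.2 in recovery, and 112, 103 and 94.8 in repeated atrophy. Both groups were below every control limb, at -0.39 ± 0.12 (adjusted p = 0.0465) and -0.41 ± 0.12 (adjusted p = 0.0203). The recovery call was lost with the block (adjusted p = 0.24) and on the CPM as deposited (adjusted p = 0.08), and held in 11 of 22 other settings. The repeated atrophy call passed with the block (adjusted p = 0.027), but on the CPM as deposited its value was -0.03 (adjusted p = 0.9), so the fall is one relative to the other genes of these limbs. It was also lost without repeated atrophy animal 2 or 3. Hnrnpul2 was 58.9 to 116 in control limbs and 46.1, 54.0 and 48.8 in recovery (-0.57 ± 0.15, adjusted p = 0.0232), and Hnrnpul1 was 93.8 to 119 and 86.8, 84.4 and 83.4 (-0.33 ± 0.10, adjusted p = 0.0409). Neither Hnrnpul2 nor Hnrnpul1 passed with the block (adjusted p = 0.23 and 0.33) or on the CPM as deposited (adjusted p = 0.096 and 0.17). The highest control limb for Hnrnpul2 was again that of atrophy animal 3, and sham left limbs reached 129. Sham left limbs of Hnrnpm ranged from 89.0 to 153.

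Of the general RBM genes, Rbm47 gave the largest rise from a very low level. It was 0 to 2.45 rescaled CPM in control limbs (median 0.573), 5.76, 1.26 and 7.56 in atrophy, 1.303, 1.17 and 2.86 in recovery, and 1.71, 6.92 and 13.2 in repeated atrophy. It passed in atrophy (1.69 ± 0.46, adjusted p = 0.0289) and repeated atrophy (2.09 ± 0.46, adjusted p = 0.00263), with 1 limb of each group inside the control range. The atrophy call of Rbm47 was lost with the block, and without atrophy animal 1 or 3 or any recovery animal. Rbm25, a splicing factor of apoptotic genes, was 46.1 to 154 in control limbs and 223, 174 and 119 in repeated atrophy (0.87 ± 0.26, adjusted p = 0.0193). Rbm33 fell, at 6.04 to 17.3 in control limbs and 4.23, 4.55 and 9.42 in repeated atrophy (-0.92 ± 0.32, adjusted p = 0.0449), and did not pass on the CPM as deposited (adjusted p = 0.21). Rbm3, a cold-inducible RNA-binding protein, was 36.5 to 117 in control limbs, 125, 83.9 and 147 in atrophy, and 193, 75.7 and 87.1 in repeated atrophy. Its log2 fold changes of 0.96 ± 0.34 and 0.86 ± 0.34 did not pass (adjusted p = 0.0792 and 0.0694), and a sham left limb stood at 124. Rbm4 rose in both disuse groups (0.67 ± 0.18, adjusted p = 0.0277, and 0.52 ± 0.18, adjusted p = 0.0385), with the reservation that it shares sequence with Rbm4b, which did not pass (0.39 ± 0.21 in repeated atrophy, adjusted p = 0.189). Rbm4 was 8.95 to 16.8 in control limbs, 21.6, 14.5 and 19.2 in atrophy, and 18.3, 17.5 and 13.6 in repeated atrophy. A sham left limb stood at 15.3. The atrophy call of Rbm4 was lost in the same fits as that of Rbm47.

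The table holds rows for separate transcript models, and 9 members had several (Celf2, Hnrnpa3, Hnrnpc, Hnrnpd, Hnrnpf, Hnrnpl, Hnrnpm, Rbm27 and Srsf5), 25 rows in all. Hnrnpd, whose protein binds AU-rich elements and steers mRNA decay, had 4 rows over the same span, chr14:9615479-9633791 (rn7), with lengths of 1702, 1645, 1555 and 1498 bases. The models of 1645 and 1498 bases are each 57 bases shorter than one of the other two. In recovery the 1645-base row was at 12.7 to 16.6 rescaled CPM against 2.44 to 12.1 in control limbs (1.15 ± 0.29, adjusted p = 0.017), and the 1498-base row at 9.42 to 14.1 against 1.03 to 9.06 (1.25 ± 0.37, adjusted p = 0.0351). Both lay above all 9 control limbs and both passed with the block (adjusted p = 0.037 and 0.037), and on the CPM as deposited the first passed (adjusted p = 0.0411) and the second did not (adjusted p = 0.0623). Sham limbs reached these levels without TTX. Both limbs of sham animal 3 were inside the recovery range, at 13.9 and 14.6 in the 1645-base row and at 11.5 and 11.4 in the 1498-base row, where the right limb of sham animal 1 (9.59) was too. The rows of 1702 and 1555 bases were at -0.42 ± 0.14 (adjusted p = 0.0524) and -0.43 ± 0.22 (adjusted p = 0.208).

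Of the summed Hnrnpd level, the 1645-base model held 3.41% to 12.6% in control limbs and 17.3% to 19.4% in recovery, and the 1498-base model 1.44% to 10.3% and 12.8% to 19.3%. Together, a sum chosen after the values were seen, the shorter models held 4.85% to 21.4% in control limbs (median 14.4%), 34.9%, 30.2% and 38.7% in the 3 recovery limbs, 16.1% to 20.9% in atrophy, 16.5% to 23.3% in repeated atrophy, and 16.3% to 22.8% and 8.97% to 26.1% in sham left and right limbs. All recovery limbs were above every other limb. In an exact two-sided permutation test of each share over 3 against 9 limbs, p was 0.00455 for both models, the smallest that 220 splits allow, and 0.17 after adjustment over the 75 shares tested. No share passed after adjustment, and 6 of 75 had an unadjusted p under 0.05. With this design 7 or more shares would have to stand at the smallest p for any to pass, and the test does not use the pairing of limbs, so the shares are given as a description. The values below 1 read in the table show that reads were divided among models by estimation, and each shorter model differs in length from its longer partner by 57 bases, which a single 59-base read can cover, so these shares are estimates whose own error is unknown.

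**Figure D4:**
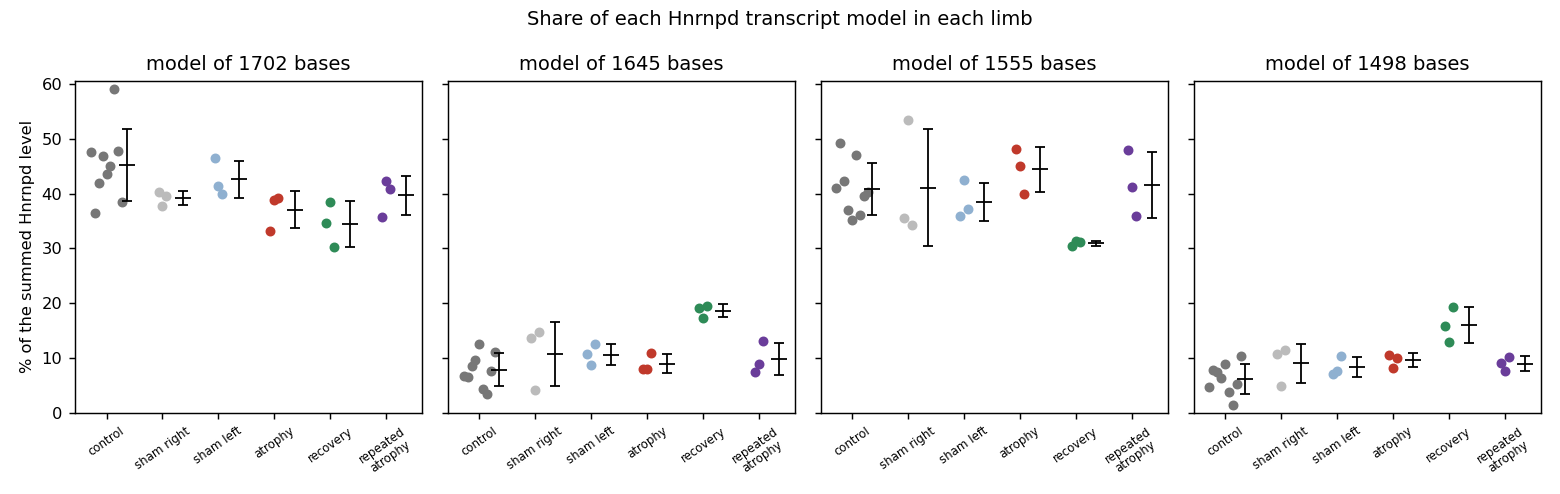
Percent of the summed Hnrnpd level held by each of the 4 transcript models (1702, 1645, 1555 and 1498 bases) in each limb. Points are limbs and bars are the mean and SD. The recovery limbs are above the 9 control limbs for the models of 1645 and 1498 bases and below all of them for the 1555-base model.

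Among the other models 4 further rows were called. The shorter Hnrnpm row (2352 bases) fell in repeated atrophy (-0.95, adjusted p = 0.013) as the longer one did, the 2644-base Hnrnpa3 row rose as its longer model did (0.71, adjusted p = 0.040), the 1714-base Hnrnpc row rose in recovery (0.65, adjusted p = 0.046) and the 2188-base Hnrnpf row rose in atrophy (0.78, adjusted p = 0.038). The 2185-base Hnrnpl row did not pass in repeated atrophy (0.41, adjusted p = 0.228) beside the 2074-base row that did. Of these 4 calls only that of Hnrnpm held with the block (adjusted p = 0.01), where Hnrnpa3 gave 0.22, Hnrnpc 0.19 and Hnrnpf 0.17. On the CPM as deposited Hnrnpa3 and Hnrnpf passed, and Hnrnpm (adjusted p = 0.144) and Hnrnpc (adjusted p = 0.069) did not.

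The promoters of the members are shown for 3 genes that moved in repeated atrophy, a general factor that rose, a muscle-type regulator that rose and the one that fell. They are RefSeq sequences of the GRCr8 build, from 250 bases before to 50 after the annotated start, and the start may not be that of the model in the table. Capitals mark matches on either strand to the TATA box (TATAAA), the CCAAT box (CCAAT), an ETS core (CCGGAAG) and the E-boxes CAGCTG and CACGTG, of which Hnrnpa1 has 3 CCAAT matches and Rbm24 and Mbnl1 have none of any. The Hnrnpa1 promoter lies at chr7:136253868-136254167 on the plus strand, that of Rbm24 at chr17:18493579-18493878 on the minus strand and that of Mbnl1 at chr2:146819784-146820083 on the plus strand.
Hnrnpa1: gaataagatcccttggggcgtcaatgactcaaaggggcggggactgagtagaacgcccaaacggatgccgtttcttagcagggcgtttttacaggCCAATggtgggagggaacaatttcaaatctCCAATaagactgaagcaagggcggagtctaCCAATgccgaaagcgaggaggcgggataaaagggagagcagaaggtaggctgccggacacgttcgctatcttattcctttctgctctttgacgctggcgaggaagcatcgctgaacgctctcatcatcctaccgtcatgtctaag
Rbm24: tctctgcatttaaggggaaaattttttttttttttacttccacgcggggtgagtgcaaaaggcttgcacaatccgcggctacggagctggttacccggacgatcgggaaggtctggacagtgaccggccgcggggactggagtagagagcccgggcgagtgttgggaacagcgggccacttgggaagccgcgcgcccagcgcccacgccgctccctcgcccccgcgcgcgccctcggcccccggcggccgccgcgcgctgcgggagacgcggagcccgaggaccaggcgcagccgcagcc
Mbnl1: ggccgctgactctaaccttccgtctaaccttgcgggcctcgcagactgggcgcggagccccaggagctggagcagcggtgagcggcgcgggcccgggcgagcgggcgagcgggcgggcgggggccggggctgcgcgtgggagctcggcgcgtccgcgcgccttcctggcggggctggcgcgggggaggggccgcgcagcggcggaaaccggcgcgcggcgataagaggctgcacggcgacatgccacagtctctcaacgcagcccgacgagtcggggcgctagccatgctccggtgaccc
GC content was 52.3% for Hnrnpa1, 68.3% for Rbm24 and 76.7% for Mbnl1. RefSeq entries were matched for 64 of the 71 members (72 entries). CCAAT or its complement was in 63.9% of the 61 entries of general members, 36.4% of the 11 of muscle-type members and 37.5% of all 33469 entries, and in 64.3% of the 14 entries of members that rose in repeated atrophy. In the same order, the ETS core was in 21.3%, 0.0% and 8.75%, the TATA box in 14.8%, 0.0% and 14.2%, the first E-box in 6.56%, 18.2% and 15.1%, and the second in 13.1%, 0.0% and 6.42%. The entries of members that rose thus held CCAAT about as often as those of general members as a whole, and no test was made.

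Other genes of the splicing machinery were read from 4 lists. The small nuclear ribonucleoproteins and helicases of the core spliceosome gave 13 rises and 2 falls among 42 genes in repeated atrophy (median 0.25), against 2 and 1 in atrophy and 3 and 4 in recovery. These were 31.0% and 4.76% in repeated atrophy beside 13.2% and 12.0% of all rows, 4.76% and 2.38% in atrophy beside 4.57% and 5.17%, and 7.14% and 9.52% in recovery beside 6.24% and 5.87%. With the block the counts were 11 and 3 in repeated atrophy, beside 10.8% and 10.2% of all rows. They were 0 in the other groups, beside 0.0% and 0.0% of all rows in atrophy and 0.314% and 0.135% in recovery. On the CPM as deposited 29 rose in repeated atrophy beside 28.1% of all rows, 22 in atrophy beside 20.3% and 1 in recovery beside 4.4%. The falls were 0, 0 and 4 in this order, beside 6.24%, 2.33% and 3.33% of all rows. Snrpf and Snrpd1, which form part of the Sm ring, rose most, with Snrpf at 15.4 ± 3.07 rescaled CPM in control limbs and 44.8 ± 13.7 in repeated atrophy (1.46 ± 0.22, adjusted p = 0.000219) and Snrpd1 at 8.01 ± 2.15 and 16.99 ± 4.56 (1.00 ± 0.25, adjusted p = 0.0062). Snrpb, also of the Sm ring, fell from 77.4 ± 15.4 to 47.6 ± 12.2 (-0.69 ± 0.18, adjusted p = 0.00984), and Ddx23, the helicase of the U5 particle, from 277.6 ± 65.9 to 148 ± 27.0 (-0.88 ± 0.23, adjusted p = 0.0103). Neither fall passed on the CPM as deposited (adjusted p = 0.0884 and 0.139). In recovery Ddx23 was at 79.1 ± 7.18 (-1.76, adjusted p = 0.000528, with the block 0.052).

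Among 25 other RNA-binding splicing regulators 6 rose and 0 fell in repeated atrophy (Cirbp, Elavl1, Ewsr1, Nono, Syncrip and Taf15; median 0.13), 2 rose in atrophy and 0 were called in recovery. Beside these 6 of 25 and 2 of 25 stood 13.2% and 4.57% of all rows, and beside the 0 falls in repeated atrophy stood 12.0%. With the block 4 rose in repeated atrophy (10.8% of all rows) and 0 in atrophy (0.0% of all rows). On the CPM as deposited 12 rose in each, beside 28.1% of all rows in repeated atrophy and 20.3% in atrophy. Cirbp, a cold-inducible relative of Rbm3, was 26.2 ± 6.41 in control limbs, 40.9 ± 7.03 in atrophy, 22.4 ± 3.90 in recovery and 49.3 ± 10.5 in repeated atrophy (0.90 ± 0.19, adjusted p = 0.00248). Taf15, of the FET family, was 18.4 ± 4.24 in control limbs and 30.6 ± 4.77 in repeated atrophy (0.72 ± 0.17, adjusted p = 0.00498). Of 10 SR protein kinases and importer genes and 13 SR-related and Tra2 genes, 0 were called in atrophy and 0 in repeated atrophy, with medians of 0.23 and 0.18 in atrophy and 0.26 and 0.20 in repeated atrophy, and Tnpo3 and Srrm2 were lower in recovery (adjusted p = 0.032 and 0.022). Both of those calls were lost with the block (adjusted p = 0.14 and 0.17) and on the CPM as deposited (adjusted p = 0.085 and 0.073). With the block Srek1 and Luc7l3, SR-related proteins, passed in repeated atrophy (adjusted p = 0.013 and 0.043). The deposited scale gave 8 of 10 and 5 of 13 higher in atrophy, and 6 of 10 and 8 of 13 in repeated atrophy, with 0 lower, where 20.3% and 28.1% of all rows were higher. Srpk3, the kinase found mainly in muscle, was at 72.3 ± 11.3 in control limbs and 88.8 ± 14.5 in repeated atrophy (0.29 ± 0.14, adjusted p = 0.132), but on the CPM as deposited its log2 fold change was 0.67 (adjusted p = 0.0029) there and 0.57 (adjusted p = 0.016) in atrophy.

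Markers of other cell types moved with the groups. In atrophy and repeated atrophy Myf5 (satellite cells) was called higher and Actn3 (fast fibres) lower, in repeated atrophy Pecam1 and Cdh5 (endothelium) were called lower and S100a8 (neutrophils) higher, and in recovery Cldn5 (endothelium) was called lower. The satellite cell list summed to 7.49 to 17.3 rescaled CPM in control limbs, against 11.1 to 75.4 in atrophy, 29.7 to 52.7 in repeated atrophy and 11.7 to 23.9 in recovery, the endothelial list to 174 to 227, 140.4 to 187, 120.3 to 149.5 and 143 to 181 in this order, and the fibre list in repeated atrophy to 85086 to 143942. Sham limbs, without TTX, had the satellite cell list at 7.21 to 62.6 in left and 6.52 to 46.1 in right limbs, and the endothelial list at 188 to 358 and 190.4 to 401. The summed Schwann cell list was 26.5 to 71.3 in control limbs and 13.4 to 46.8 in all other limbs. The adipocyte list summed to 5.74 to 28.5 in control limbs, 8.10 to 16.9 in atrophy, 6.92 to 13.2 in repeated atrophy, 23.2 to 34.8 in recovery and 12.9 to 35.3 in sham left limbs. The neutrophil list stood at 0.954 to 5.20 in control limbs, 2.52 to 3.05 in atrophy, 3.17 to 6.47 in repeated atrophy, 1.93 to 7.09 in recovery, and up to 32.9 and 23.7 in sham left and right limbs. Their part in the levels of the members was not tested.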

How the data were processed

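Poly(A) RNA of the TA muscle of 24 limbs (12 animals) was sequenced by the authors in directional libraries of 59-base paired-end reads. The submitters' processing notes name Partek, Bowtie2 2.2.5, STAR, DESeq2 with a median of ratios step and the rn7 build, while the gene annotation and the counting tool are not given in the sources used here. The deposited values were found to be CPM, with every column summing to 1000000, and values far below 1 read show division of reads among transcript models. Whole reads could not be recovered (86.3% to 88.0% of low values were whole within 0.02), so no count test was made, and depth was inferred from these steps. Of 14271 rows, 28 exact duplicates were dropped, and 3 value columns that match no sample here were not used.

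CPM were divided by a median of ratios factor per limb, from 11397 rows above 0 in every limb, since the study's methods name that scaling. limma 3.58.1 (R 4.3.3) with trend was fitted to log2(value + 1) over the 18 limbs of the TTX animals without a block, for rows above 0 in at least 3 limbs, with Benjamini-Hochberg adjustment. Sham limbs were fitted apart. Calls needed a fold change of 1.2 or more with an adjusted p no higher than 0.05. The script was tested on simulated data. The limbs of an animal are paired by the labels. Their deviations from the group means correlated with r of -0.329 to 0.535 in the TTX animals and 0.612 to 0.838 in the sham animals, and limma's estimate for the TTX animals was 0.15. Library preparation was randomised, and nothing further ties limbs to batches.

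Genes were named by a rule, which took all muscle-type members and, for each comparison with control, the 5 general members that rose most and the 5 that fell most among those called with no overlap of limbs and a mean of at least 1 CPM, with 2 rises and 2 falls from each other list. Other called members are named from their values. The members and lists were chosen with earlier results of these data known. Alternatives were the CPM as deposited, trimmed mean scaling, other pseudocounts and filters, 12 right limbs as control, the animal as a block, rows summed per symbol, and each animal left out.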

Additional observations from a re-analysis of the deposited data

Results flagged for a closer look

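Among the 9 control limbs, 3 members had a value set far off from the others by Dixon's criterion (0.493 for 9 values), in 22 sets of values examined, of which chance flags about 1 in 20. Celf4 was at 1.04 rescaled CPM in the right limb of repeated atrophy animal 1, Hnrnpul2 at 116 and Rbm20 at 125 in the right limb of atrophy animal 3.

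Effects differed between left groups for 9 members. In recovery against atrophy, log2 fold changes were -0.58 for Hnrnpd, -0.48 for Hnrnph2, -0.59 for Rbm17, -0.75 for Rbm4 and -0.72 for Srsf7. In repeated atrophy against recovery they were 0.64 for Hnrnpd, 0.52 for Hnrnph2, 0.63 for Hnrnpl, 0.58 for Rbm28, 0.70 for Rbm42, 0.56 for Srsf4 and 0.71 for Srsf7. With the animal as a block none of these passed.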

How the results depend on the processing

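On the CPM as deposited, members higher and lower numbered 32 and 0 in atrophy, 41 and 1 in repeated atrophy, and 1 was lower in recovery, with 20 called in recovery against atrophy and 29 in repeated atrophy against recovery. With the replicate block (animal fixed) the counts were 0 and 0 in atrophy and 0 lower in recovery, and 0 and 0 between the left groups, and on the CPM as deposited with this block 0 and 0, 0 lower, and 32 and 1 in repeated atrophy. With the animal as a random effect 1 member was higher in recovery and 3 were called in recovery against atrophy. Fits of only the groups compared gave 2 and 0 in atrophy and 1 in recovery against atrophy. A minimum of 10 CPM gave 8 lower in recovery, 1 lower in repeated atrophy and 12 called in repeated atrophy against recovery, 12 right limbs as control gave 9 lower in recovery, and a pseudocount of 0.1 gave 3. limma without trend, no filter, or rows summed gave 1 higher in recovery each. For the deposited scale with the block and the settings after it, the share of all rows called is not given here. A moved count under these settings is therefore not read as a result about the members. Leaving out 1 animal, the counts of higher and lower members ran from 0 to 7 and 0 to 3 in atrophy, 0 to 1 and 0 to 7 in recovery, and 3 to 16 and 1 to 3 in repeated atrophy, and those called from 0 to 5 in recovery against atrophy and 1 to 13 in repeated atrophy against recovery. The muscle-type median minus the general one was -0.12 in atrophy and -0.17 in recovery with members of at least 10 CPM. The calls of Mbnl1, Rbm24, Rbm38, Srsf7, Srsf10, Hnrnpa1, Hnrnpl, Hnrnpm, Hnrnpul1 and Hnrnpul2 changed sign under no alternative run for them, and the splicing genes that are not members were refitted only as deposited, with the trimmed mean and with the block. The cause of these shifts was not tested. A group size of 3 limbs and an unknown error of the division of reads among models limit all values.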
